A study of Mus musculus with 8 samples.

Results

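The genes described here are 9 that encode secreted proteins of the liver: Fgf21, Gdf15, Inhbe, Lect2, Fetub, Ahsg, Angptl4, Angptl6 and Angptl8. They were chosen by name from a table of 33212 genes, 15291 of which had enough counts to be tested, and all 9 were in the table and were tested. The table named 8 of them by these symbols, and Angptl8 was found by its Ensembl identifier, ENSMUSG00000047822, under the older symbol Gm6484. RNA-seq of whole liver was made from 4 Nnmt LKO mice and 4 Control mice, all C57BL/6 males fed for 8 weeks on the methionine- and choline-deficient (MCD) diet, which causes steatosis and liver damage in mice. Nnmt encodes nicotinamide N-methyltransferase, an enzyme that passes a methyl group from S-adenosylmethionine to nicotinamide. Nnmt LKO mice carried Alb-Cre and Nnmt flox/flox, so that Cre was driven by the albumin promoter. The study describes this knockout as specific to hepatocytes, and the state of the gene in other liver cells was not examined here. Control mice, whose genotype the sample labels give as WT, are described in the study as Nnmt flox/flox. The age of these mice is not given in the sources used here. No group without the MCD diet was analysed here, so every value belongs to mice on that diet.

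Hepatokines are proteins that the liver releases into the blood and that act on other organs. FGF21 is made by hepatocytes in fasting, amino acid shortage and mitochondrial or ER stress, and it signals through FGF receptors together with the co-receptor β-Klotho. GDF15 is released by many stressed tissues and reduces food intake through its receptor GFRAL in the hindbrain. Both genes, and Inhbe, are known targets of the integrated stress response, in which phosphorylation of eIF2α raises the translation of the transcription factor ATF4. Fgf21 and Angptl4 are also known targets of PPARα, the nuclear receptor of fasting, and Angptl8 is raised by feeding and insulin.

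The upstream sequences of Fgf21, Angptl8 and Inhbe are shown because, of the 8 hepatokine genes with a promoter window in RefSeq's annotation of GRCm38.p6, these 3 held the 8-base ATF4 response element TGATGNAA on either strand within 250 bases before the transcription start. The element was in 3.45% of all 32851 such windows. Capitals mark this element, read as TTGCATCA where it lies on the other strand, and in Fgf21 also an E-box (CACGTG) and a TATA box (TATAAA), which were in 6.02% and 12.4% of all windows. The stretches of Fgf21 (chr7:45615491-45615650, minus strand) and Angptl8 (chr9:21835350-21835509, plus strand) are the last 160 bases before the start. That of Inhbe (chr10:127352011-127352040, minus strand) is 30 bases around the element and lies inside a long first exon of the gene in GENCODE's annotation.
Fgf21: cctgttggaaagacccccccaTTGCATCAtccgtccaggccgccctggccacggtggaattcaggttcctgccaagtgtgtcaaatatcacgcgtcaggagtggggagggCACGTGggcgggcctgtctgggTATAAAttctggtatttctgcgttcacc
Angptl8: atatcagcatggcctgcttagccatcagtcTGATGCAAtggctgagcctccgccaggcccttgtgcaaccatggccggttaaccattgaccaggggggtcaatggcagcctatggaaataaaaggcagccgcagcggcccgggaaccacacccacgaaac
Inhbe: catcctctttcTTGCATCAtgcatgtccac

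For comparison, the element is shown in the 6 genes of the ATF4 target list that held it, out of 11 with a window, whatever their values in these livers. They are Asns (chr6:7693214-7693243, minus strand), Chac1 (chr2:119351038-119351067, plus strand), Vldlr (chr19:27216809-27216838, plus strand), Atf3 (chr1:191183425-191183454, minus strand), Nupr1 (chr7:126625562-126625591, minus strand) and Slc7a11 (chr3:50443652-50443681, minus strand), which held it 2 times.
Asns: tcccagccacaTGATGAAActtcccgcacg
Chac1: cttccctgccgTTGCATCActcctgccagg
Vldlr: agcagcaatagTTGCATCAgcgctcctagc
Atf3: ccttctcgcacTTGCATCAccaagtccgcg
Nupr1: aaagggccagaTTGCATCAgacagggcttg
Slc7a11: gcTGATGCAAacctggagaatTTGCATCAt

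The element lay 139 bases before the start in Fgf21, 181 in Inhbe and 130 in Angptl8, counted to the base farthest from the start. Neither of the Gdf15 windows held it, while one of them held an E-box 83 bases before the start. No hepatokine window held the DR1 element of PPARα, which was in 0.0335% of all windows, or the cAMP response element TGACGTCA, which was in 1.55%. A match to these letters is a description of the sequence and not a measured binding site.

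**Figure D1:**
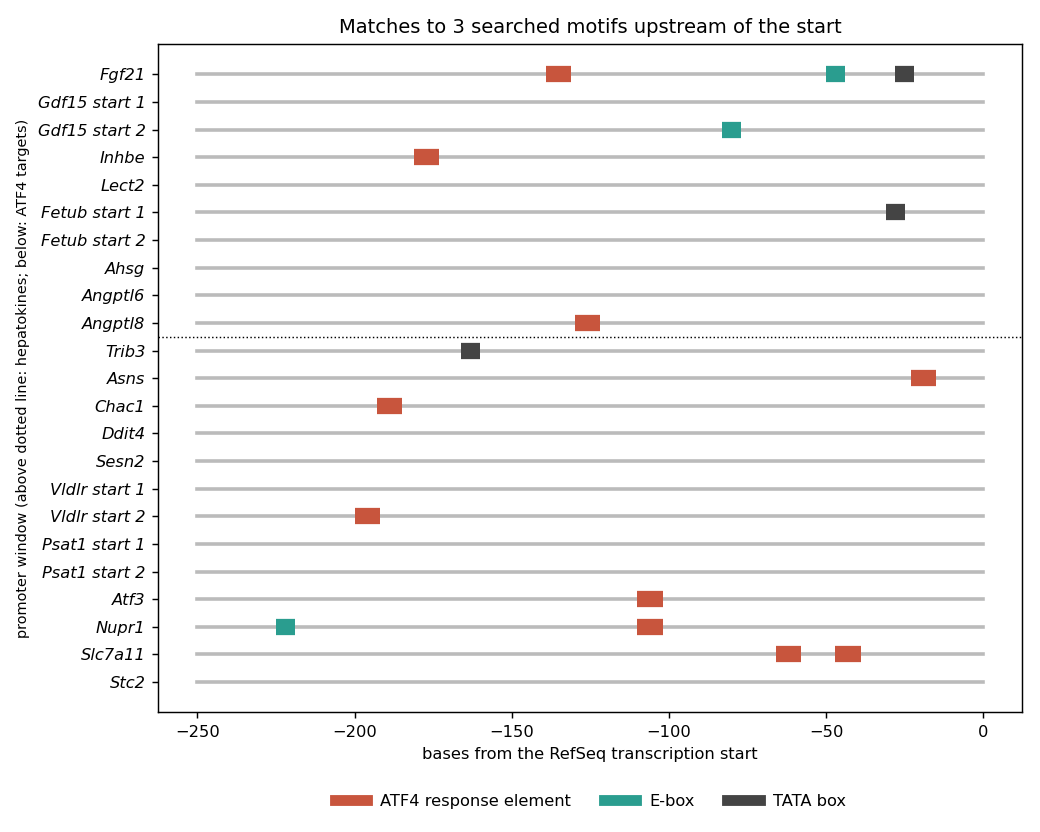
Matches to the ATF4 response element (TGATGNAA), the E-box and the TATA box in the 250 bases before each RefSeq transcription start (x axis, bases from the start) of the hepatokine genes, above the dotted line, and of the ATF4 target list, below it. The element is seen in Fgf21, Inhbe and Angptl8 and in 6 of the 11 ATF4 targets with a window, and Angptl4 and Cth had no window.

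The libraries held between 75020072 and 87934362 counts, so that 3 counts stood for 0.0341 to 0.04 CPM, counts scaled to the library total. All CPM values are scaled by edgeR's TMM factors, which corrected for differences in composition and ranged from 0.876 to 1.21. The columns of the count table give the genotype but no mouse number, and the libraries are therefore lettered a to d within each genotype. Nnmt was at 57.1 ± 23.1 CPM (SD, n = 4) in Nnmt LKO mice and at 139 ± 60.5 CPM (SD, n = 4) in Control mice, without overlap. The mean was thus 41.2% of the Control mean, with a log2 fold change of -1.28, a nominal p of 0.00256 and an adjusted p of 0.123 in edgeR's quasi-likelihood test. The hepatocyte marker Alb was among the most abundant mRNAs, from 48513 to 89487 CPM, and of 4 adipocyte markers none had enough counts to be tested. Library a of Nnmt LKO stood apart, with the highest TMM factor (1.21 against 0.952 to 0.977 in the other Nnmt LKO libraries). It had the lowest summed hepatocyte markers (59892 CPM against 71363 to 108425 CPM in the other 7 libraries). Its summed stellate cell markers were the highest (658 CPM against 206 to 364 CPM), with Col3a1 the largest part at 231 CPM. Col1a1, Col1a2, Acta2, Pdgfrb and Lrat were also highest there. Des was instead highest in Control library c (11.7 CPM), and Reln in Nnmt LKO library c (119 CPM). Summed Kupffer cell and macrophage markers were highest in Nnmt LKO library a (942 CPM) and Control library d (896 CPM), against 404 to 551 CPM in the other 6 libraries. Lyz2 was the largest part of these sums, at 527 and 460 CPM, and Adgre1, Cd68 and Csf1r were also highest in these libraries. The markers Clec4f, Vsig4 and Timd4 were instead highest in Nnmt LKO library d (118, 36.6 and 5.31 CPM). Summed cholangiocyte markers were at 278 CPM in Nnmt LKO library a against 49.9 to 177 CPM in the others. Spp1 alone made up most of the sum in that library, at 243 CPM. Krt7, Epcam and Sox9 were also highest there, while Krt19 was about equal there and in Control library c (6.39 and 6.41 CPM). Summed endothelial markers were highest in Control library d (237 CPM against 123 to 188 CPM). Summed lymphocyte and neutrophil markers were at 2.49 to 13.6 CPM in all 8 libraries. The log2 fold change of each hepatokine is therefore also given without Nnmt LKO library a.

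Fgf21 mRNA was lower in Nnmt LKO liver, at 55.6% of the Control mean, and Gdf15 mRNA was on average higher, but neither passed the adjusted threshold over all genes. The other 7 hepatokines differed less, and their 95% intervals all included no difference. At an adjusted p under 0.05 in edgeR's quasi-likelihood test, 0 of the 9 hepatokines were called, against 0.32% of all tested genes (0.137% lower and 0.183% higher). At a nominal (unadjusted) p under 0.05, 1 was lower (Fgf21) and 0 were higher, against 7.13% and 5.45% of all tested genes, which were 4.05% and 5.35% with library size as the only scaling. None of the 9 separated the 4 Nnmt LKO from the 4 Control libraries without overlap, against 8.16% of all tested genes (4.81% lower and 3.34% higher). In DESeq2's Wald test, Fgf21 alone of the 9 was called at an adjusted p under 0.05, against 3.32% of all tested genes, and Gdf15 was the only one higher at a nominal p under 0.05. The median log2 fold change of the 9 genes was -0.16, and that of all tested genes was 0.02.

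Fgf21 (ENSMUSG00000030827; chr7:45613886-45615490, minus strand, GRCm38) was at 32.8, 35.4, 41.5 and 20.7 CPM in Control libraries a to d and at 24.3, 15.9, 14.8 and 17.4 CPM in Nnmt LKO libraries a to d. The genotypes overlapped only through Nnmt LKO library a, which was above Control library d. The mean was 32.6 ± 8.73 CPM (SD, n = 4) in Control and 18.1 ± 4.24 CPM (SD, n = 4) in Nnmt LKO. The log2 fold change was -0.85 (SE 0.21, 95% interval -1.31 to -0.38), with a nominal p of 0.00209 and an adjusted p of 0.116 in edgeR's quasi-likelihood test. Nnmt LKO library a had the highest summed stellate cell markers, though not the highest Des or Reln. Without that library, the log2 fold change was -1.02 and the adjusted p 0.0449 in edgeR's test. Of all genes tested in that fit, 0.963% were called. In DESeq2's Wald test, the log2 fold change was -0.84 and the adjusted p 0.0118. The nominal p of Fgf21 was under 0.05 in each of the 12 alternatives tried, and the adjusted p was under 0.05 in those 2 and ranged from 0.0118 to 0.352. Fewer hepatocytes and less mRNA per hepatocyte cannot be told apart in whole liver, for Fgf21 as for the genes below.

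Fgf21 lies on chromosome 7, where the median log2 fold change over 1154 tested genes was -0.14. The 68 tested genes within 1 Mb of Fgf21 had a median of -0.13, and the 334 genes of the stretch from 25 to 50 Mb had one of -0.06. A lower log2 fold change than that of Fgf21 was found in 1.47% of the genes within 1 Mb and 0.898% of those in that stretch. The share was 1.39% on the whole chromosome and 1.5% among all tested genes. Whether the position of Fgf21 bears on its value was not tested.

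Gdf15 (ENSMUSG00000038508; chr8:70629393-70632456, minus strand) was at 17.2, 14.6, 18.1 and 14.0 CPM in Control libraries a to d and at 28.3, 16.7, 31.1 and 14.4 CPM in Nnmt LKO libraries a to d. Nnmt LKO libraries a and c were well above every Control library, while b and d lay within the Control range. The mean was 16.0 ± 1.97 CPM (SD, n = 4) in Control and 22.6 ± 8.32 CPM (SD, n = 4) in Nnmt LKO. Its log2 fold change was 0.50 (SE 0.23, 95% interval -0.01 to 1.01), with a nominal p of 0.052 and an adjusted p of 0.401 in edgeR's quasi-likelihood test. Without Nnmt LKO library a it was 0.37, without c 0.31, without b 0.62 (nominal p 0.0241 in edgeR) and without d 0.66 (nominal p 0.00765 in edgeR). Gdf15 had a nominal p under 0.05 in 4 of the 12 alternatives and an adjusted p under 0.05 in none.

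The ratio of Fgf21 to Gdf15 counts was 1.91, 2.42, 2.29 and 1.47 in Control libraries a to d and 0.857, 0.957, 0.476 and 1.21 in Nnmt LKO libraries a to d. The ratio needs no scaling between libraries, and every Nnmt LKO library was below every Control library. It was chosen after the values of both genes were seen and is given as a description without a test.

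Inhbe (ENSMUSG00000047492; chr10:127348857-127354411, minus strand) encodes the βE subunit of activins, secreted dimers of the TGF-β family, and is made mainly in liver. It was at 96.1, 162, 126 and 42.4 CPM in Control libraries a to d and at 93.7, 118, 71.7 and 97.5 CPM in Nnmt LKO libraries a to d. Inhbe varied most of the 9 genes, by 3.81-fold between the highest and the lowest library, and both ends of that range were Control mice. The log2 fold change was -0.16 (SE 0.32), with adjusted p = 0.873 in edgeR's quasi-likelihood test, and it was -0.15 without Nnmt LKO library a and turned sign without Control library b (0.12). Inhbe carries the ATF4 response element shown above, as Fgf21 does, but its mean in Nnmt LKO was 89.4% of Control.

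**Figure D2:**
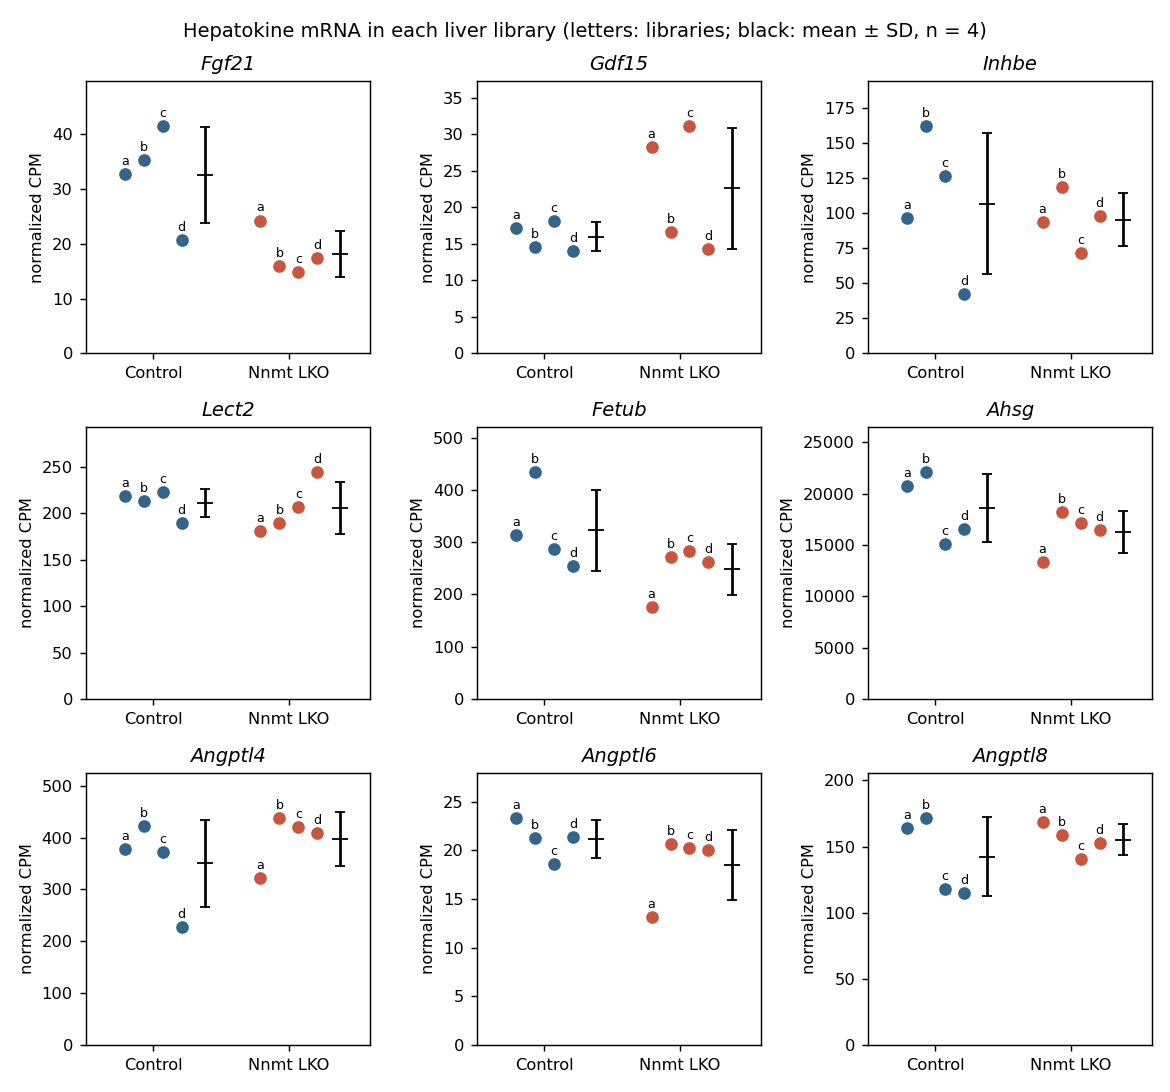
TMM-normalized CPM (y axis, linear from 0, its range set for each gene) of the 9 hepatokine genes in the 4 Control (blue) and 4 Nnmt LKO (red) liver libraries, lettered a to d, with the mean ± SD of each genotype in black. Fgf21 overlaps only through Nnmt LKO library a (24.3 CPM) and Control library d (20.7 CPM), and Gdf15 is high in Nnmt LKO libraries a and c (28.3 and 31.1 CPM).

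Ahsg and Fetub encode fetuin-A and fetuin-B, cystatin-family glycoproteins of the plasma that are neighbours on chromosome 16 (Ahsg at chr16:22891277-22899449 and Fetub at chr16:22918334-22939778, both on the plus strand). Fetuin-A binds calcium phosphate and is an inhibitor of the insulin receptor, and fetuin-B inhibits the egg protease ovastacin. Fetub was at 314, 434, 287 and 255 CPM in Control libraries a to d and at 176, 271, 283 and 261 CPM in Nnmt LKO libraries a to d. Control library b and Nnmt LKO library a were the highest and the lowest, and the other 6 libraries lay between 255 and 314 CPM. The log2 fold change of Fetub was -0.38 (SE 0.19, 95% interval -0.80 to 0.05), with a nominal p of 0.0753 and an adjusted p of 0.444 in edgeR's quasi-likelihood test. It was -0.25 without Nnmt LKO library a, -0.19 without Control library b and -0.48 without Control library d (nominal p 0.0377 in edgeR). With library size as the only scaling, its 2 genotypes did not overlap and the nominal p was 0.0247 in edgeR's quasi-likelihood test.

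Ahsg was by far the most abundant of the 9 and took 1.57% to 1.98% of all counts in a library. It was at 20750, 22086, 15092 and 16577 CPM in Control libraries a to d and at 13325, 18179, 17135 and 16415 CPM in Nnmt LKO libraries a to d. The genotypes overlapped widely, and the log2 fold change was -0.20 (SE 0.19), with adjusted p = 0.712 in edgeR's quasi-likelihood test, and -0.11 without Nnmt LKO library a. Lect2 (chr13:56542464-56548502, minus strand), a chemotactic factor made by hepatocytes that is linked to insulin resistance of muscle, was the steadiest, at 189 to 223 CPM in Control and 181 to 244 CPM in Nnmt LKO. Its log2 fold change was -0.04 (SE 0.12, 95% interval -0.31 to 0.23), with adjusted p = 0.92 in edgeR's quasi-likelihood test, and it was 0.016 without Nnmt LKO library a.

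Angptl4 and Angptl8 encode angiopoietin-like proteins that act on lipoprotein lipase, the enzyme that frees fatty acids from circulating triglycerides. ANGPTL4 inhibits the enzyme in fasting, whereas ANGPTL8 acts after feeding. Angptl4 (ENSMUSG00000002289; chr17:33773750-33781830, minus strand) was at 379, 422, 372 and 228 CPM in Control libraries a to d and at 322, 438, 420 and 408 CPM in Nnmt LKO libraries a to d. Control library d was below the other 7 libraries, and the log2 fold change of 0.18 (SE 0.19, adjusted p 0.727 in edgeR's quasi-likelihood test) was 0.02 without it and 0.27 without Nnmt LKO library a. Angptl8 (chr9:21835510-21837347, plus strand) was at 164, 172, 118 and 115 CPM in Control libraries a to d and at 168, 159, 140 and 153 CPM in Nnmt LKO libraries a to d. The Control libraries fell on both sides of the Nnmt LKO libraries, and the log2 fold change was 0.13 (SE 0.15), with adjusted p = 0.769 in edgeR's quasi-likelihood test, and 0.084 without Nnmt LKO library a. Angptl8 lies inside Dock6, on its opposite strand, and since it is not stated whether the counting used strand, reads of Dock6 cannot be told apart there.

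Angptl6 (chr9:20873808-20879727, minus strand), which encodes angiopoietin-related growth factor, was at 23.3, 21.2, 18.6 and 21.4 CPM in Control libraries a to d and at 13.1, 20.6, 20.2 and 20.04 CPM in Nnmt LKO libraries a to d. Nnmt LKO library a was far below the other 7, which lay close together. The log2 fold change was -0.19 (SE 0.15), with adjusted p = 0.639 in edgeR's quasi-likelihood test, and -0.06 without that library. The end of Angptl6 overlaps A230050P20Rik on the opposite strand, with the same limit.

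Across the 9 genes, 2 libraries took most of the low ends. Nnmt LKO library a was the lowest of all 8 for Lect2, Fetub, Ahsg and Angptl6, and Control library d was the lowest of all 8 for Gdf15, Inhbe, Angptl4 and Angptl8. Among the Control libraries alone, d was the lowest for 7 of the 9 genes. The share of all tested genes that were lowest in these 2 libraries was not counted. These were the libraries with the highest sum of 7 Kupffer cell and macrophage markers, at 942 and 896 CPM. Lyz2 was the largest part of it, at 527 and 460 CPM, while Clec4f, Vsig4 and Timd4 were highest in Nnmt LKO library d. The part of this difference in marker sums in the hepatokine values was not tested. Without Nnmt LKO library a, all 9 log2 fold changes stayed under 0.40 in size except that of Fgf21. The within-genotype SD of log2 CPM was at percentile 86.1 of all tested genes for Inhbe, 70.8 for Gdf15 and 67.2 for Fgf21, and at percentile 19.7 for Lect2.

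Levels were compared between genes per kilobase of exon. In Control liver, Ahsg was at 8478 ± 1514 CPM per kb (SD, n = 4), followed by Lect2 at 230 ± 16.3, Fetub at 164 ± 39.7, Angptl8 at 164 ± 34.5, Angptl4 at 98.9 ± 23.8, Fgf21 at 34.2 ± 9.18, Inhbe at 20.1 ± 9.50, Angptl6 at 13.4 ± 1.23 and Gdf15 at 8.63 ± 1.06 CPM per kb. In this order, Fetub and Angptl8, Fgf21 and Inhbe, and Inhbe and Angptl6 had overlapping mean ± SD on the per kb scale, and the other neighbours did not. In Nnmt LKO liver, Fgf21 at 19.0 ± 4.46 CPM per kb (SD, n = 4) was next to Inhbe at 17.9 ± 3.59, and Gdf15 at 12.2 ± 4.49 was next to Angptl6 at 11.7 ± 2.28. The level of Inhbe is understated if the long first exon of its annotation is not used in liver.

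The partners through which these proteins act were listed as 21 genes, 17 of which were tested. In edgeR's quasi-likelihood test 0 of the 17 were called at an adjusted p under 0.05, and at a nominal p under 0.05 there were 2 lower and 2 higher, against 7.13% and 5.45% of all tested genes. DESeq2 called 1 lower and 1 higher at an adjusted p under 0.05, against 1.91% and 1.41% of all tested genes. Fgfr1, an FGF21 receptor that is low in normal hepatocytes, was at 28.8 to 40.2 CPM in Control and 40.4 to 54.8 CPM in Nnmt LKO, without overlap (log2 fold change 0.54, SE 0.13, adjusted p 0.114 in edgeR's test). Klb, which encodes β-Klotho and is needed for FGF21 to act on a cell, was at 19.1 to 32.8 CPM in Control and 19.5 to 32.8 CPM in Nnmt LKO. Fgfr3 had a log2 fold change of -0.28 (SE 0.10, adjusted p 0.286 in edgeR's test), and that of Fgfr4, the main FGF receptor of hepatocytes, was -0.07. Gfral, the receptor of GDF15, had 0 counts in every library. Met, the hepatocyte growth factor receptor to which LECT2 is known to bind, was at 37.8 to 43.5 CPM in Control and 32.0 to 34.0 CPM in Nnmt LKO, without overlap (log2 fold change -0.33, SE 0.09, adjusted p 0.141 in edgeR's test).

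Among the lipases, Lipg, which encodes endothelial lipase, was at 24.5 to 50.3 CPM in Control and 39.6 to 66.5 CPM in Nnmt LKO (log2 fold change 0.66, SE 0.21, adjusted p 0.23 in edgeR's test). Lpl, the target of ANGPTL4, was at 40.2, 47.8, 110 and 110 CPM in Control libraries a to d and at 94.1 to 157 CPM in Nnmt LKO, with overlap. The Control libraries thus formed 2 pairs for Lpl.

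Of the 4 tested genes for proteases that process these proteins, Pcsk6 was at 88.7 to 115 CPM in Control and 62.6 to 86.9 CPM in Nnmt LKO, without overlap (log2 fold change -0.37, SE 0.13, adjusted p 0.28 in edgeR's test). Furin, which cleaves the precursors of many TGF-β family proteins, had a log2 fold change of -0.36 (SE 0.17, nominal p 0.051 in edgeR's test). Both genes lie on chromosome 7. Fap, the protease that inactivates FGF21, did not have enough counts to be tested.

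Of the 13 tested relatives of the 9 genes, 0 were called at an adjusted p under 0.05 by edgeR or by DESeq2, and 1 was higher by nominal p under 0.05 in edgeR, against 5.45% of all tested genes. That gene, Angptl1, was close to the limit of counting, at 0 to 0.145 CPM in Control and 0.273 to 0.492 CPM in Nnmt LKO. Inhbc, a liver gene that is a close relative and neighbour of Inhbe, was at 66.8 to 138 CPM in Control and 59.7 to 92.8 CPM in Nnmt LKO, with a log2 fold change of -0.30 (SE 0.21, adjusted p 0.576 in edgeR's test).

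Among 17 other hepatokines, Igfbp1, which encodes a binding protein of insulin-like growth factors that is raised in fasting and by stress, had the smallest p. It was at 618, 887, 687 and 470 CPM in Control libraries a to d and at 1439, 868, 1795 and 1321 CPM in Nnmt LKO libraries a to d. Nnmt LKO libraries a, c and d were above every Control library, and b was within the Control range. The log2 fold change was 1.03 (SE 0.24), with adjusted p = 0.0986 in edgeR's quasi-likelihood test, and DESeq2 called Igfbp1 with an adjusted p of 0.00138. Igfbp1 is a further known ATF4 target, and Fgf21 and Igfbp1 thus had log2 fold changes of opposite sign. Hpx, which encodes the heme carrier hemopexin, was at 8922 to 12900 CPM in Control and 5686 to 8148 CPM in Nnmt LKO, without overlap (log2 fold change -0.57, SE 0.18, adjusted p 0.215 in edgeR's test). Tsku, which encodes tsukushi, had a log2 fold change of -0.62 (SE 0.23), and Igf1 one of 0.44 (SE 0.19), with adjusted p of 0.292 and 0.364 in edgeR's test. Hpx and Tsku both lie on chromosome 7. In the list of 17, 2 genes were lower and 2 higher by nominal p under 0.05 in edgeR, against 7.13% and 5.45% of all tested genes, and 0 passed the adjusted threshold.

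The transcription factors known to drive the hepatokines were listed as 20 genes. At an adjusted p under 0.05, 0 of the 20 were called by edgeR. DESeq2 called 5 lower and 1 higher at that threshold, against 1.91% and 1.41% of all tested genes. By nominal p under 0.05 in edgeR, 8 were lower and 2 were higher, against 7.13% and 5.45% of all tested genes. Of the 8, 2 lie on chromosome 7 (Cebpa and Atf5), which held 1154 of the 15291 tested genes. The share of genes lower by nominal p was not counted by chromosome. Atf4 was at 123, 122, 113 and 103 CPM in Control libraries a to d and at 68.3, 80.0, 85.2 and 79.9 CPM in Nnmt LKO libraries a to d. Every Nnmt LKO library was below every Control library, and the log2 fold change was -0.56 (SE 0.11, adjusted p 0.0711 in edgeR's quasi-likelihood test). Ddit3, which encodes the stress factor CHOP, was at 14.2 to 20.9 CPM in Control and 9.97 to 11.8 CPM in Nnmt LKO. It was also without overlap (log2 fold change -0.68, SE 0.16, adjusted p 0.0922 in edgeR's test). Atf4 and Ddit3 belong to the integrated stress response, a subject of the study on these same libraries. Their direction and their part in the counts above are therefore not independent evidence. Cebpa, which encodes a factor of the differentiated hepatocyte, had a log2 fold change of -0.63 (SE 0.13, adjusted p 0.0778 in edgeR's test). Ppargc1a, which encodes the fasting coactivator PGC-1α, was at 10.5 to 12.9 CPM in Control and 15.4 to 26.6 CPM in Nnmt LKO, without overlap (log2 fold change 0.82, SE 0.17, adjusted p 0.0711 in edgeR's test, or 0.0189 without Nnmt LKO library a). Ppara itself had a log2 fold change of 0.10 (SE 0.20), and Creb3l3, whose product works with PPARα on Fgf21, one of 0.00 (SE 0.18).

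**Figure D3:**
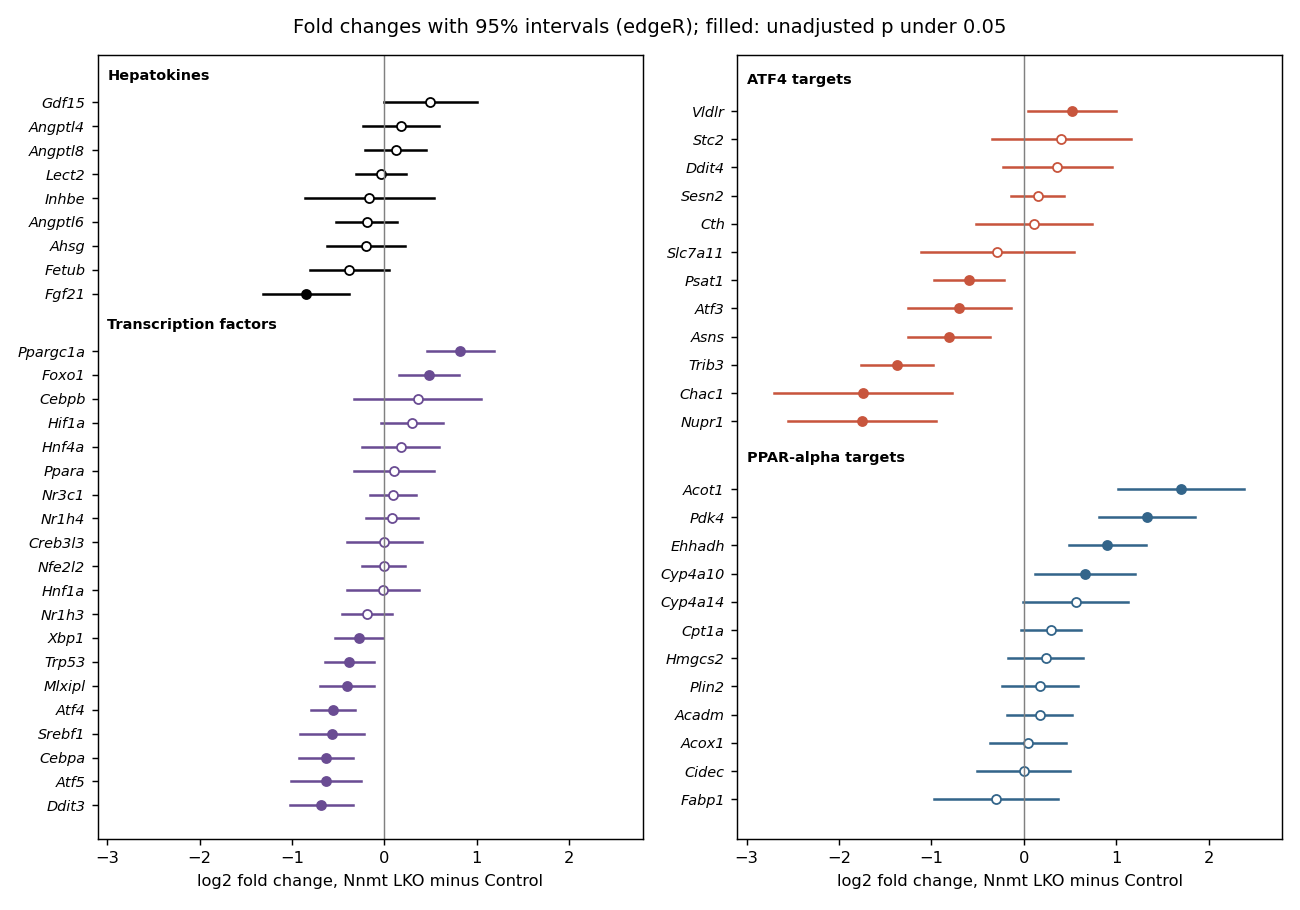
Log2 fold changes (x axis, Nnmt LKO minus Control) with 95% intervals from edgeR for the 9 hepatokines and 20 transcription factors (left) and for 12 ATF4 targets and 12 PPARα targets (right), with filled points for a nominal p under 0.05. Fgf21 is the only filled hepatokine, 6 ATF4 targets are filled on the lower side and 1 on the higher, and 4 PPARα targets are filled on the higher side.

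Fgf21 has been described as a target of both ATF4 and PPARα, and the other targets of these factors are therefore set beside it. Of 12 ATF4 targets, 1 passed the adjusted threshold in edgeR's test. Trib3, a pseudokinase gene induced by ATF4 and CHOP, fell by 1.37 on the log2 scale (SE 0.18, adjusted p 0.0188 in edgeR's quasi-likelihood test), from 72.1 to 85.5 CPM in Control to 19.1 to 36.0 CPM in Nnmt LKO. Its adjusted p was 0.0543, 0.0967 and 0.0658 without Nnmt LKO library c, Control library a and Control library c. By nominal p under 0.05 in edgeR, 6 of the 12 were lower and 1 was higher, against 7.13% and 5.45% of all tested genes, and the median log2 fold change was -0.44. Nupr1, a small stress-induced chromatin protein gene on chromosome 7, was at 31.0 to 79.5 CPM in Control and 8.91 to 26.2 CPM in Nnmt LKO. Its log2 fold change was -1.75 (SE 0.36, adjusted p 0.0725 in edgeR's test). Chac1, which encodes a glutathione-degrading enzyme, was at 3.08 to 5.05 CPM in Control and 0.363 to 2.21 CPM in Nnmt LKO. Both passed edgeR's test without Nnmt LKO library a, where each adjusted p was 0.0195. Asns, the gene of asparagine synthetase, had a log2 fold change of -0.81 (SE 0.20, adjusted p 0.116 in edgeR's test). The integrated stress response was a subject of the study on these same libraries, so that the direction of this list is not independent evidence. Of the 9 genes whose upstream element is printed above, Fgf21, Asns, Chac1, Atf3 and Nupr1 had a negative log2 fold change with nominal p under 0.05 in edgeR. Among all tested genes, 7.13% were lower by that measure. Vldlr, the gene of the very low density lipoprotein receptor, was higher at 0.52 (SE 0.22, nominal p 0.0354 in edgeR's test). Slc7a11, the gene of a cystine transporter, had -0.29 (nominal p 0.465 in edgeR's test), and Inhbe and Angptl8 had nominal p of 0.621 and 0.42. ATF4 targets whose windows did not hold the element went both ways. Trib3 and Psat1 had log2 fold changes of -1.37 and -0.60 with nominal p under 0.05 in edgeR, and Ddit4, Sesn2 and Stc2 had 0.36, 0.15 and 0.41. The link of the element to these values was not tested.

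Of 12 PPARα targets, 1 passed the adjusted threshold in edgeR's test and it was higher, opposite in sign to Fgf21. Pdk4, which encodes a kinase that shuts down pyruvate oxidation in fasting, rose from 54.0 to 99.2 CPM in Control to 132 to 263 CPM in Nnmt LKO (log2 fold change 1.33, SE 0.24, adjusted p 0.0496 in edgeR's quasi-likelihood test). That call was lost in 10 of the 12 alternatives, with an adjusted p of up to 0.216. By nominal p under 0.05 in edgeR, 0 of the 12 were lower and 4 higher, against the same 7.13% and 5.45%, and the median log2 fold change was 0.26. Acot1, an acyl-CoA thioesterase gene, was at 10.9 to 33.4 CPM in Control and 58.7 to 107 CPM in Nnmt LKO (log2 fold change 1.70, SE 0.31, adjusted p 0.0528 in edgeR's test). Ehhadh, which encodes a peroxisomal β-oxidation enzyme, had a log2 fold change of 0.91 (SE 0.19, adjusted p 0.0725 in edgeR's test). Without Nnmt LKO library a, the adjusted p was 0.0232 for Acot1 and 0.0366 for Ehhadh in edgeR's test. Angptl4, the other hepatokine known as a PPARα target, had one of 0.18 with an interval of -0.23 to 0.59.

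Among 12 genes that respond to insulin and carbohydrate, as Angptl8 does, Txnip, a glucose-responsive gene of the thioredoxin system, rose by a log2 fold change of 1.02 (SE 0.18, adjusted p 0.0496 in edgeR's quasi-likelihood test). Txnip was at 108 to 193 CPM in Control and 285 to 358 CPM in Nnmt LKO, and the call was lost in 9 of the 12 alternatives, with an adjusted p of up to 0.159. G6pc, the glucose-6-phosphatase gene that insulin lowers, was at 213 to 382 CPM in Control and 395 to 667 CPM in Nnmt LKO (log2 fold change 0.96, SE 0.22, adjusted p 0.0907 in edgeR's test, or 0.0442 without Nnmt LKO library a). G6pc was without overlap, while Angptl8 was with it. By nominal p under 0.05 in edgeR, 3 of the 12 were higher, against 5.45% of all tested genes.

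**Figure D4:**
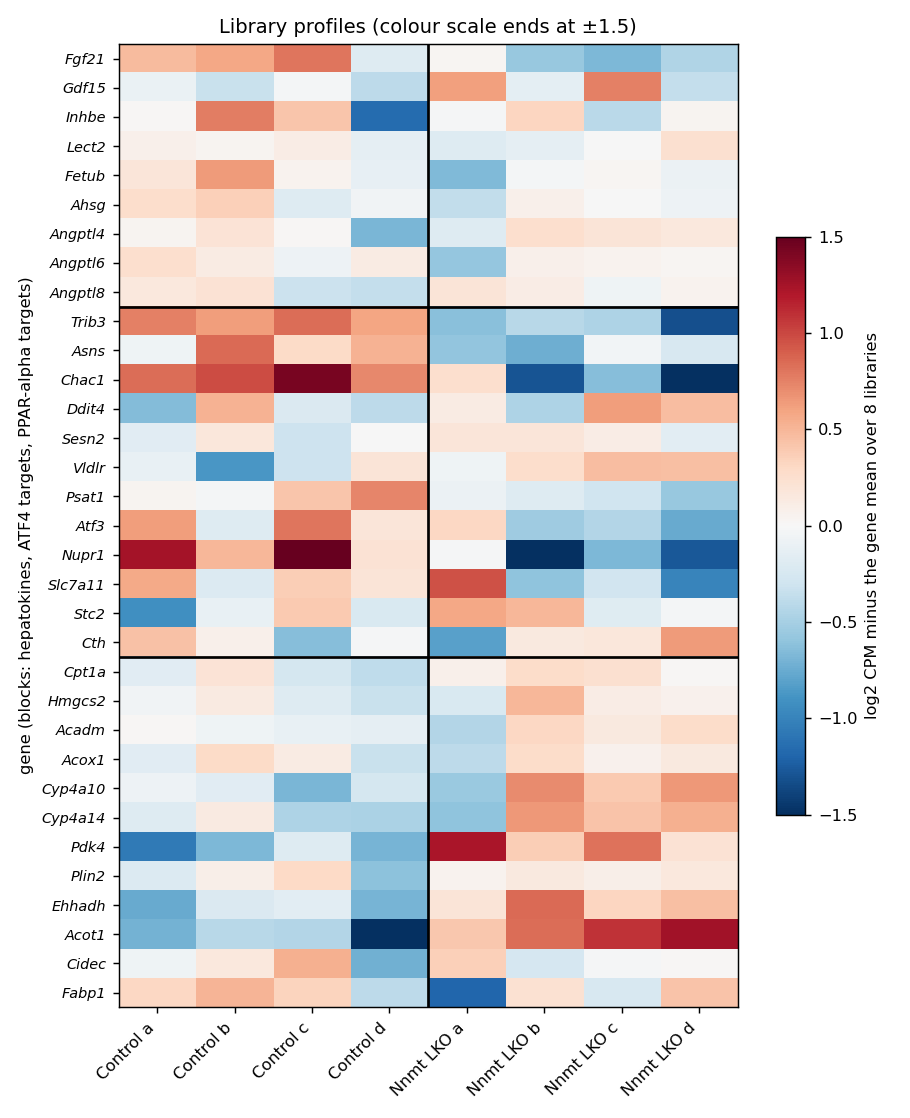
Log2 CPM minus each gene's mean over the 8 libraries (colour, ending at ±1.5) for the 9 hepatokines, 12 ATF4 targets and 12 PPARα targets (rows), with the 4 Control libraries on the left and the 4 Nnmt LKO libraries on the right. Fgf21 is blue in Nnmt LKO libraries b, c and d and near its mean in a, and Trib3 is blue in all 4 Nnmt LKO libraries.

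For the 3 hepatokines with the smallest p, the genes of most similar profile were taken by the root mean square difference of centred log2 CPM over the 8 libraries. For Fgf21 these were Cenpn (0.154), Krt18 (0.177) and Rhpn2 (0.193). Krt18, which encodes a keratin of hepatocytes and bile ducts, had a log2 fold change of -0.65 with a mean of 506 CPM in Control and 322 CPM in Nnmt LKO. Gdf15 was nearest to Sgsm2 (0.176), Kcns3 (0.195) and Siglech (0.203), the last 2 at under 1 CPM. Fetub had much closer neighbours, Apof (0.0643), Tfr2 (0.0697) and Mpst (0.0744), 3 genes that hepatocytes express.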

How the data were processed

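The deposited values are the authors' raw counts of reads per gene, in a table whose 8 columns name the genotype but no mouse, and no column was left out. The study's methods state alignment and quantification with HISAT2, and the submitters' processing notes also name StringTie and mm10, without versions. Whether the counting used strand is not stated. The methods name one library kit (KAPA HyperPrep) and the labels another (NEBNext Ultra). Libraries of one genotype differed well beyond sampling noise (chi-square over its degrees of freedom, 42.1 to 267), so none was a copy. The labels number the mice, 1 library each, but give no batch or day. The p-values therefore set the difference between genotypes against the spread among libraries of one genotype, for these 8 libraries only.

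Genes with few counts were removed with filterByExpr at a minimum count of 10, and TMM normalization and the quasi-likelihood test were run in edgeR 4.0.16 under R 4.3.3, with Benjamini-Hochberg adjustment over all 15291 tested genes. Log2 fold changes are Nnmt LKO minus Control. DESeq2, which the study names without a version, was run in version 1.42.0 as an alternative, as were its size factors, scaling by library size, no filter on low counts and each library left out in turn. Positions and exon lengths are from GENCODE M21 of GRCm38, which matched 99.1% of tested genes, and promoters from RefSeq's annotation of GRCm38.p6. The scripts were first tested on simulated data.

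The 9 genes, the gene lists and the markers were chosen with earlier results of these data known. Named genes are the 9 hepatokines, Nnmt, up to 4 genes of smallest p in each list, direct partners of the 9, and the 3 nearest profiles of 3 hepatokines. Genes named outside this rule were chosen after their values were seen. Some genes of the lists are not reported here.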

Additional observations from a re-analysis of the deposited data

Results flagged for a closer look

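In Nnmt LKO library a, Angptl6 was at 13.1 CPM, far from the 20.04 to 20.6 CPM of the other 3 Nnmt LKO libraries. The TMM factor of the same library was 1.21, against 0.952 to 0.977 in the other 3. G6pc was at 382 CPM in Control library b, while Control libraries a, c and d had 213 to 232 CPM. In each case the gap between this sample and the nearest other took most of the range of its group. Of the 74 groups of 4 values that were checked, 3 stood out in this way, where chance gives about 3.7.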

How the results depend on the processing

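For each log2 fold change, 12 alternatives were tried. Fgf21 passed an adjusted p under 0.05 in DESeq2's test (-0.84, adjusted p 0.0118) and without Nnmt LKO replicate a (-1.02, adjusted p 0.0449), and Nnmt in DESeq2's test (-1.28, adjusted p 0.00467). The number of hepatokines lower at an adjusted p under 0.05 was thus 1 in DESeq2's test and without Nnmt LKO replicate a, in place of 0. Of all genes tested in those fits, 1.91% and 0.498% were lower by that measure, against 0.137% in the main test. At a nominal p under 0.05, 2 hepatokines were lower with library size as the only scaling (4.05% of all tested genes), and 1 was higher with DESeq2's size factors (5.88%) and in DESeq2's test (6.65%). With library size alone, 1 hepatokine was without overlap, on the lower side (3.03%). Inhbe changed sign without Control replicate b (0.12), and Lect2 without Nnmt LKO replicate a (0.016) and with library size alone (0.0078). Leaving out each library in turn gave -1.02 to -0.71 for Fgf21, -0.43 to 0.12 for Inhbe, -0.13 to 0.02 for Lect2 and -1.52 to -0.94 for Nnmt, 0 to 1 hepatokines lower at an adjusted p under 0.05, and at a nominal p 1 to 2 lower (2 without Control replicate d, against 7.6% of all genes tested there) and 0 to 1 higher (1 without Nnmt LKO replicate b or d, against 4.79% and 4.68%). The cause of these shifts was not tested. All other hepatokines kept their sign in every alternative. The calls of Trib3, Pdk4 and Txnip held in 9, 2 and 3 of the 12 alternatives. At an adjusted p under 0.05, ATF4 targets that were lower numbered 1 in edgeR's test, 4 in DESeq2's and 3 without Nnmt LKO replicate a, and PPARα targets that were higher numbered 1, 3 and 4. Of all genes tested in these fits, 0.137%, 1.91% and 0.498% were lower by that measure, and 0.183%, 1.41% and 0.465% were higher. The count of all called genes was 49 in edgeR's test and 508 in DESeq2's. No paired analysis was possible because the columns of the count table carry no mouse number. Depth did not limit the 9 hepatokines, the lowest of which was at 13.1 CPM, but it did limit Angptl1.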
